A study of Gallus gallus with 2 samples.

Results

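Aminoacyl-tRNA synthetases and target genes of the transcription factor ATF4 were compared in cells of the DT40 line that lack the histone variant H2A.Z-1 (H2A.Z-1 KO) and in cells that lack its sister variant H2A.Z-2 (H2A.Z-2 KO). Members were chosen by their gene symbol in the array's annotation: 1 or 2 letters followed by ARS and an optional 1 or 2, EPRS, or one of 11 named genes around ATF4. This took 70 of the 38535 probe sets in the table, which report 37 of 13009 named genes. They comprise 16 cytosolic synthetases with 34 probe sets, 12 mitochondrial synthetases with 23, and ATF4 with 8 of its named partners and targets, with 13. Probe sets for TRIB3, SESN2 and the cytosolic methionyl- and valyl-tRNA synthetases were not found under these symbols and are not analysed here.

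DT40 is a chicken B-cell line derived from a bursal lymphoma. The H2A.Z-1 KO cells keep a tetracycline-repressible H2A.Z-1 transgene, whereas the H2A.Z-2 KO cells carry a permanent disruption of the H2A.Z-2 gene. Both cultures were kept in tetracycline at 2 µg/ml for 72 hours, so the drug itself is shared. Total RNA of 1 culture per genotype was hybridised to 1 Affymetrix chicken array each, and no wild-type array was analysed here. Without replicates no error between cultures, no test and no p-value can be given. The precision is limited by the number of arrays. Each log2 ratio below is H2A.Z-1 KO over H2A.Z-2 KO. It does not show which of the lines departs from wild-type cells. Whether each line is a single clone is not stated in the labels.

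Aminoacyl-tRNA synthetases attach each amino acid to its tRNA and so feed the ribosome. Vertebrates encode mostly separate sets for the cytosol and for mitochondria in nuclear genes, and several cytosolic enzymes are bound together in a multisynthetase complex. When amino acids run short or proteins misfold in the endoplasmic reticulum, kinases phosphorylate the initiation factor eIF2, and the translation of ATF4 mRNA increases. ATF4 protein then activates genes of amino acid synthesis, transport and tRNA charging, as known from mammals. Because ATF4 is controlled largely at translation, its mRNA level does not report its activity.

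The arrays had equal 2% trimmed mean signals of 500.1 each. Log2 signals of the 14050 probe sets above a floor of 98.2 on both arrays correlated with r = 0.959 across probe sets, which are not independent replicates. H2AFZ, the gene of H2A.Z-1, had a signal of 614.6 in H2A.Z-1 KO cells, against 27642 in H2A.Z-2 KO cells. H2AZ2 had 20911 in H2A.Z-1 KO cells, against 42.1 in H2A.Z-2 KO cells, which is under the floor. Both knocked-out genes thus went the way their labels say. Each rests on 1 probe set, that of H2AFZ with a suffix for several transcripts, and whether they lie inside the disrupted parts was not analysed. All 11 B-cell marker genes found on the array were above the floor on at least 1 array. Their summed signal was 37544 in H2A.Z-1 KO cells, against 13843 in H2A.Z-2 KO cells. Of the 11, 5 passed 2-fold toward H2A.Z-1 KO, namely CD79B (8.76-fold), EBF1 (at least 4.29-fold), CD72 (4.19-fold), CD74 (3.73-fold) and BTK (2.61-fold). The 3 below 0 were PAX5 (log2 ratio -0.68), LYN (-0.58) and BASP1 (-0.23, under the floor in H2A.Z-1 KO cells). Of T and NK cell markers 4 of 11 were above the floor, with a summed signal of 10324 in H2A.Z-1 KO cells, against 8508 in H2A.Z-2 KO cells. CD247 was 3.04-fold higher and CD5 at least 5.50-fold lower in H2A.Z-1 KO cells, CD3D stood at 0.29 and CD8A at -0.68, and CD4, CD28, LCK, ZAP70 and GATA3 were under the floor on both. Of 6 myeloid markers, SPI1 (2.08-fold toward H2A.Z-1 KO) and CEBPA (-0.60) were measured and LYZ and CSF1R were under the floor on both, with a sum of 2889 in H2A.Z-1 KO cells, against 1490.2 in H2A.Z-2 KO cells. Of 9 fibroblast markers, COL1A2 (0.46), COL1A1 (0.43), PDGFRA (-0.19) and FN1 (-0.81) were measured and LUM and DCN were not, with a sum of 504.7 in H2A.Z-1 KO cells, against 510.3 in H2A.Z-2 KO cells. Of 5 erythroid and thrombocyte markers only HBAD passed, under the floor in H2A.Z-1 KO cells and at 123.1 in H2A.Z-2 KO cells. In these sums a signal under the floor counts as the floor, which holds for BASP1, HBAD, CEBPA, PDGFRA, FN1, CD5 and CD8A in H2A.Z-1 KO cells, for EBF1 and COL1A1 in H2A.Z-2 KO cells, and for some probe sets of LYN and COL1A2. In such bulk RNA fewer cells of a type and less RNA per cell cannot be told apart. The part of the B-cell marker difference in the results below was not tested.

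No synthetase and no gene around ATF4 differed 2-fold between the knockouts. The most displaced gene was CHAC1, at 1.91-fold lower in H2A.Z-1 KO cells, followed by CEBPG at 1.55-fold lower. On the other side, higher in H2A.Z-1 KO cells, were YARS at 1.41-fold and ASNS at 1.28-fold. The floor is the 60th percentile of all signals that are not controls, because dimmer signals have no reliable order. It was passed on at least 1 array by 52 of the 70 member probe sets, and by 50 on both. These represent 34 of the 37 genes, and CEBPB, PHGDH and TARS2 were under the floor on both arrays.

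At the threshold of 2-fold, 0 of 52 member probe sets passed, against a background of 7.17% of all 16701 probe sets above the floor. Counted by gene it was 0 of 34, against 6.67% of 7977 named genes. Among probe sets with a mean signal of 1000 or more, a limit chosen after seeing the data, 0 of 38 member probe sets and 4.09% of all 5699 passed 2-fold. At 1.5-fold the same bright probe sets gave 4 of 38 members, or 10.5%, against 14.4% of all. Over all brightnesses, 5 member probe sets (9.62%) were at least 1.5-fold lower in H2A.Z-1 KO cells, against 12.5% of all probe sets. One member probe set (1.92%) was at least 1.5-fold higher, against 8.9% of all. By gene, CHAC1 and CEBPG, 2 of 34, were at least 1.5-fold lower, against 11.6% of named genes, and 0 of 34 were as much higher, against 7.56%. As reported, the shares of members past either threshold were thus under those of the whole array. Member genes past 1.5-fold ranged from 1 of 34 with median centring to 6 of 37 with no floor. The share of all named genes past 1.5-fold was not counted in these settings. Whether the members stay under it there is therefore not known.

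The 34 measured genes had a median log2 ratio of -0.08, beside -0.06 for all named genes. Their middle 50% lay between -0.22 and 0.08, and that of all named genes between -0.32 and 0.19. Of the 34, 21 were below 0, or 61.8%, against 57.4% of all named genes. Among genes with a mean signal of 1000 or more, 24 members had a median of -0.07, beside -0.01 for all 2855. The middle 50% of these bright genes lay between -0.25 and 0.08 for the members and between -0.22 and 0.19 for all. No test of these differences was made.

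**Figure D1:**
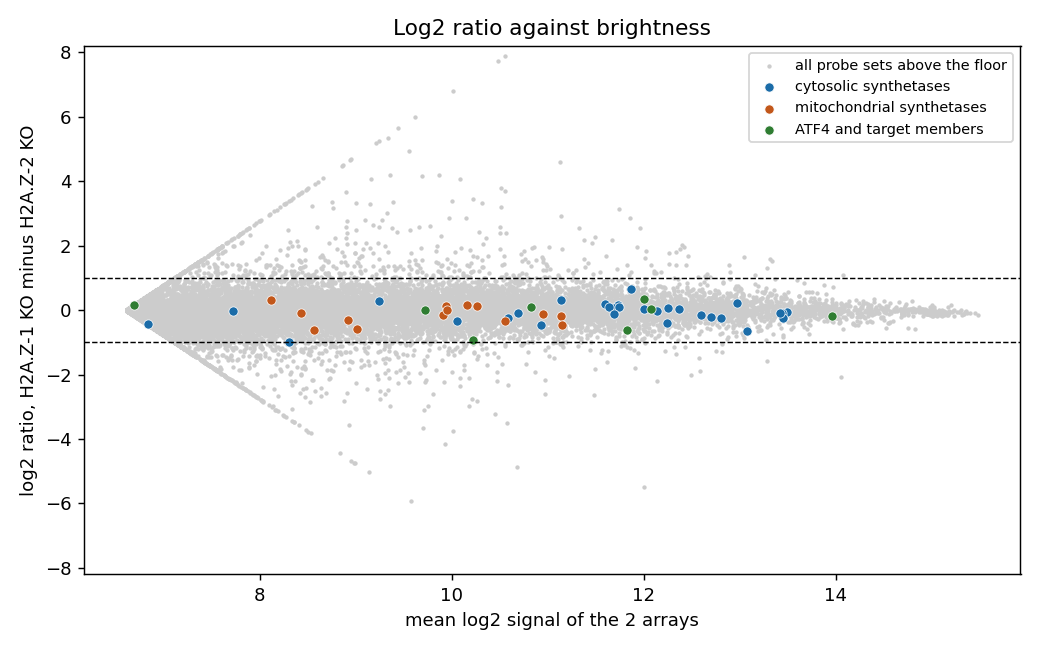
Log2 ratio (H2A.Z-1 KO over H2A.Z-2 KO) against the mean log2 signal of the arrays for all 16701 probe sets above the floor (grey) and the 52 member probe sets (coloured by role). Dashed lines mark 2-fold, and every coloured point lies between them.

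Probe sets of 1 gene gave the only measure of error available, and it concerns probes and not cultures. Over 14 member genes with several probe sets past the floor, the pooled SD between probe sets was 0.25 on the log2 scale. It was 0.36 over 3588 such genes on the array. Probe sets of opposite sign occurred in 5 of the 14 genes, namely ATF4, EARS2, EPRS, LARS2 and TARS. Among probe sets with a mean signal of 1000 or more, the SD was 0.12 over 9 member genes and 0.18 over 990 genes on the array. A gene ratio nearer to 0 than about the SD for its brightness is therefore not distinguished from probe differences. For 20 of the 34 genes a single probe set was above the floor, so not even this measure exists. Of the 52 probe sets, 30 have a suffix that marks possible matches to several transcripts.

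The cytosolic synthetases form the largest group, and all 16 were above the floor. Their median log2 ratio was -0.04 (0.01 with median centring), with 9 below 0 and 7 above, from -0.54 for GARS to 0.50 for YARS. None of the 16 reached 1.5-fold as a gene mean, against 11.6% of named genes lower and 7.56% higher by that much. This depended on the setting. YARS passed 1.5-fold with a floor at percentile 40, no floor or the brightest probe set. GARS passed it with a floor at percentile 80 or the brightest probe set.

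YARS, which charges tyrosine, was the most displaced upward. Its probe sets had signals of 4717 and 2536 in H2A.Z-1 KO cells, against 2977 and 2022 in the same order in H2A.Z-2 KO cells, log2 ratios of 0.66 and 0.33. Both were brighter in H2A.Z-1 KO cells, and the first was the only member probe set at least 1.5-fold higher there. A further YARS probe set stayed under the floor at 79.9 in H2A.Z-1 KO cells, against 32.1 in H2A.Z-2 KO cells.

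GARS, the glycyl-tRNA synthetase, whose gene serves the cytosol and mitochondria in vertebrates, lay farthest down. Its bright probe set had a signal of 6925 in H2A.Z-1 KO cells, against 10752 in H2A.Z-2 KO cells, a log2 ratio of -0.63. A dim one at 97.6 in H2A.Z-1 KO cells, just under the floor, and 132.9 in H2A.Z-2 KO cells gave -0.44, and the third was under the floor on both. Both measured ones were dimmer in H2A.Z-1 KO cells.

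IARS, for isoleucine, had a gene ratio of -0.49 that rests on its dimmest probe set. That probe set had 224.9 in H2A.Z-1 KO cells, against 443.0 in H2A.Z-2 KO cells, a ratio of -0.98. The other two had 6541 and 1418 in H2A.Z-1 KO cells, against 7826 and 1676 in H2A.Z-2 KO cells, with ratios of -0.26 and -0.24. All agree in sign, while the size differs between probe sets by 0.74. With the brightest probe set alone IARS stood at -0.26.

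LARS, for leucine, was the member with the most probe sets above the floor. They had signals of 10746, 4224, 1664 and 950.0 in H2A.Z-1 KO cells, against 11547, 5537, 2283 and 1196 in H2A.Z-2 KO cells. Each of the 4 was lower in H2A.Z-1 KO cells, with log2 ratios of -0.10, -0.39, -0.46 and -0.33. The gene mean was -0.32, and -0.10 on the brightest probe set.

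The remaining cytosolic enzymes had log2 ratios between -0.23 and 0.21. NARS, for asparagine, had a signal of 10364 in H2A.Z-1 KO cells, against 12165 in H2A.Z-2 KO cells, a log2 ratio of -0.23. RARS, for arginine, had geometric mean signals of 6022 in H2A.Z-1 KO cells and 6858 in H2A.Z-2 KO cells, a ratio of -0.19 with both probe sets below 0. WARS, for tryptophan, had 3185 in H2A.Z-1 KO cells and 3437 in H2A.Z-2 KO cells (-0.11). These 3 were slightly lower in H2A.Z-1 KO cells, by less than the SD of 0.25 between member probe sets. NARS and RARS, but not WARS, lay beyond the 0.12 of bright member probe sets.

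KARS, for lysine, had 11240.4 in H2A.Z-1 KO cells, against 11799 in H2A.Z-2 KO cells (-0.07). AARS1, for alanine, had 578.9 in H2A.Z-1 KO cells and 601.8 in H2A.Z-2 KO cells (-0.06). TARS, for threonine, had 6656 in H2A.Z-1 KO cells and 6760.1 in H2A.Z-2 KO cells (-0.02), its probe sets lying on either side of 0. These were near-equal on the arrays.

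EPRS, a fused enzyme for glutamate and proline, had 4741 in H2A.Z-1 KO cells and 4645 in H2A.Z-2 KO cells (0.03). SARS1, for serine, had 5358 in H2A.Z-1 KO cells and 5218 in H2A.Z-2 KO cells (0.04), and HARS1, for histidine, 3392 in H2A.Z-1 KO cells and 3240 in H2A.Z-2 KO cells (0.07). All differed by less than 5% between the arrays. QARS, for glutamine, had 1980.0 in H2A.Z-1 KO cells and 1780.4 in H2A.Z-2 KO cells (0.15), with its 3 probe sets all above 0. CARS, for cysteine, had 3458 in H2A.Z-1 KO cells and 3050.2 in H2A.Z-2 KO cells (0.18), and DARS, for aspartate, 8677 in H2A.Z-1 KO cells and 7490.5 in H2A.Z-2 KO cells (0.21). These 3 leaned to the H2A.Z-1 KO array, again by less than the SD of 0.25 between member probe sets. CARS and DARS lay beyond the 0.12 of bright member probe sets. The bright probe sets of QARS, at 0.09 and 0.08, did not.

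**Figure D2:**
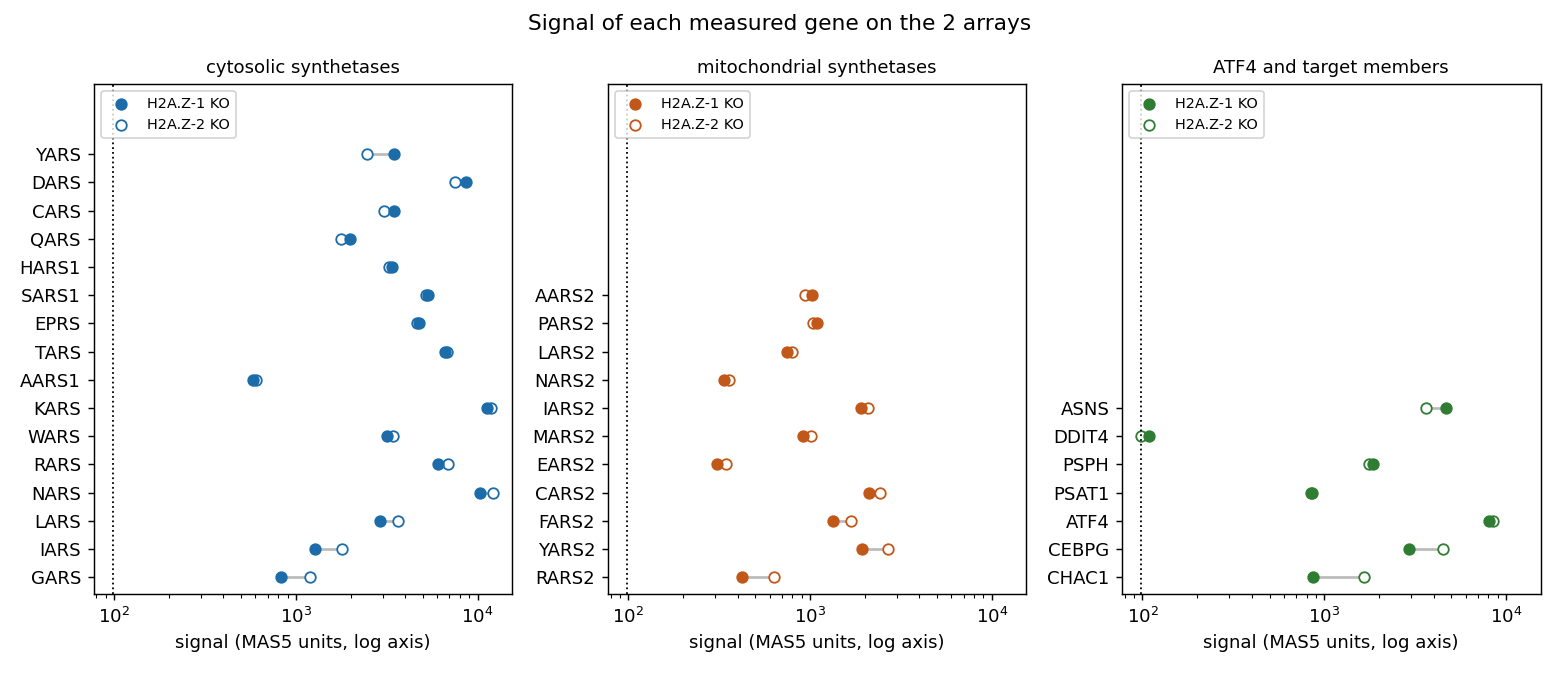
Signal of each of the 34 measured genes on the H2A.Z-1 KO array (filled) and the H2A.Z-2 KO array (open), on a log axis, as the geometric mean of its probe sets above the floor (dotted line, to which lower signals were set). Distances between the circles of 1 gene can be read as fold differences, whereas levels of different genes come from different probes and are not comparable.

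Subgroups of the cytosolic enzymes are given by their medians, and no difference between them was tested. The structural classes of synthetases, which differ in the fold of the catalytic domain, had medians of -0.04 each over 8 genes of class I and 8 of class II, and of 0.01 each with median centring. EPRS, which joins an enzyme of each class, was counted in class I. The 7 measured enzymes of the multisynthetase complex had a median of -0.07, and the 9 others -0.02 (0.03 with median centring). The 11 on a list of synthetases whose genes ATF4 binds in mammals had -0.06, with 7 below 0 and 4 above. The other 5, DARS, HARS1, KARS, QARS and RARS, had 0.07 (-0.07 without probe sets of several transcripts), with 2 below 0.

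Mitochondrial synthetases lay mostly on one side of 0, and their median stayed below 0 under each alternative. That of all named genes did too. With no floor it was the lower one, at -0.16 against -0.13 for the mitochondrial synthetases. Of the 11 measured, 9 were lower in H2A.Z-1 KO cells, or 81.8%, and the median was -0.15, whereas 57.4% of all named genes were below 0. The 9 include EARS2, whose probe sets disagree, and IARS2 and LARS2, which turned sign under some alternatives, and without these 3 genes 6 of 8 were lower. Counted under each alternative, a step added after seeing the data, the number lower was 8 of 12 with a floor at percentile 40 or no floor, 6 of 9 at percentile 80, 5 of 7 without probe sets of several transcripts and 8 of 11 with the brightest probe set. None of the 11 reached 1.5-fold as reported, against 11.6% of named genes lower and 7.56% higher by that much. This depended on the setting. EARS2 passed 1.5-fold, at -0.62, without probe sets of several transcripts or with the brightest probe set. TARS2, which the reported floor drops, passed it with a floor at percentile 40 or no floor. RARS2, for arginine, had a signal of 424.4 in H2A.Z-1 KO cells, against 632.5 in H2A.Z-2 KO cells, a log2 ratio of -0.58. That ratio shrank to -0.16 with a floor at percentile 80, which lies above the H2A.Z-1 KO signal. YARS2, for tyrosine, had 1922 in H2A.Z-1 KO cells and 2678 in H2A.Z-2 KO cells (-0.48), opposite in sign to its cytosolic counterpart YARS at 0.50. FARS2, for phenylalanine, had 1342 in H2A.Z-1 KO cells and 1689 in H2A.Z-2 KO cells (-0.33). Each of these 3 rests on a single probe set above the floor.

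CARS2 had 2117 in H2A.Z-1 KO cells and 2412 in H2A.Z-2 KO cells (-0.19), and MARS2 had 910.4 in H2A.Z-1 KO cells and 1012 in H2A.Z-2 KO cells (-0.15). IARS2 had 1903 in H2A.Z-1 KO cells and 2076 in H2A.Z-2 KO cells (-0.13), and NARS2 had 335.2 in H2A.Z-1 KO cells and 357.1 in H2A.Z-2 KO cells (-0.09). These charge cysteine, methionine, isoleucine and asparagine. IARS2 turned to 0.24 with a floor at percentile 40 or no floor. NARS2 rests on 1 of 6 probe sets, since 5 were under the floor, and moved to -0.46 with a floor at percentile 40. LARS2, for leucine, had 751.2 in H2A.Z-1 KO cells and 794.1 in H2A.Z-2 KO cells (-0.08), with probe sets at -0.30 and 0.14, and stood at 0.14 under the 3 alternatives that keep only the second. AARS2, for alanine, had 1032 in H2A.Z-1 KO cells and 940.8 in H2A.Z-2 KO cells (0.13), and PARS2, for proline, 1096 in H2A.Z-1 KO cells and 1037 in H2A.Z-2 KO cells (0.08, and up to 0.45 with no floor). They were the only mitochondrial members above 0.

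EARS2, which puts glutamate on mitochondrial tRNAs, had the least consistent probe sets of all members. One had 307.1 in H2A.Z-1 KO cells, against 470.9 in H2A.Z-2 KO cells, a log2 ratio of -0.62, and the other 310.1 in H2A.Z-1 KO cells and 250.4 in H2A.Z-2 KO cells, a ratio of 0.31. Their mean of -0.15 is therefore not interpretable as a gene value. TARS2 had 76.9 in H2A.Z-1 KO cells, against 49.7 in H2A.Z-2 KO cells, both under the floor.

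**Figure D3:**
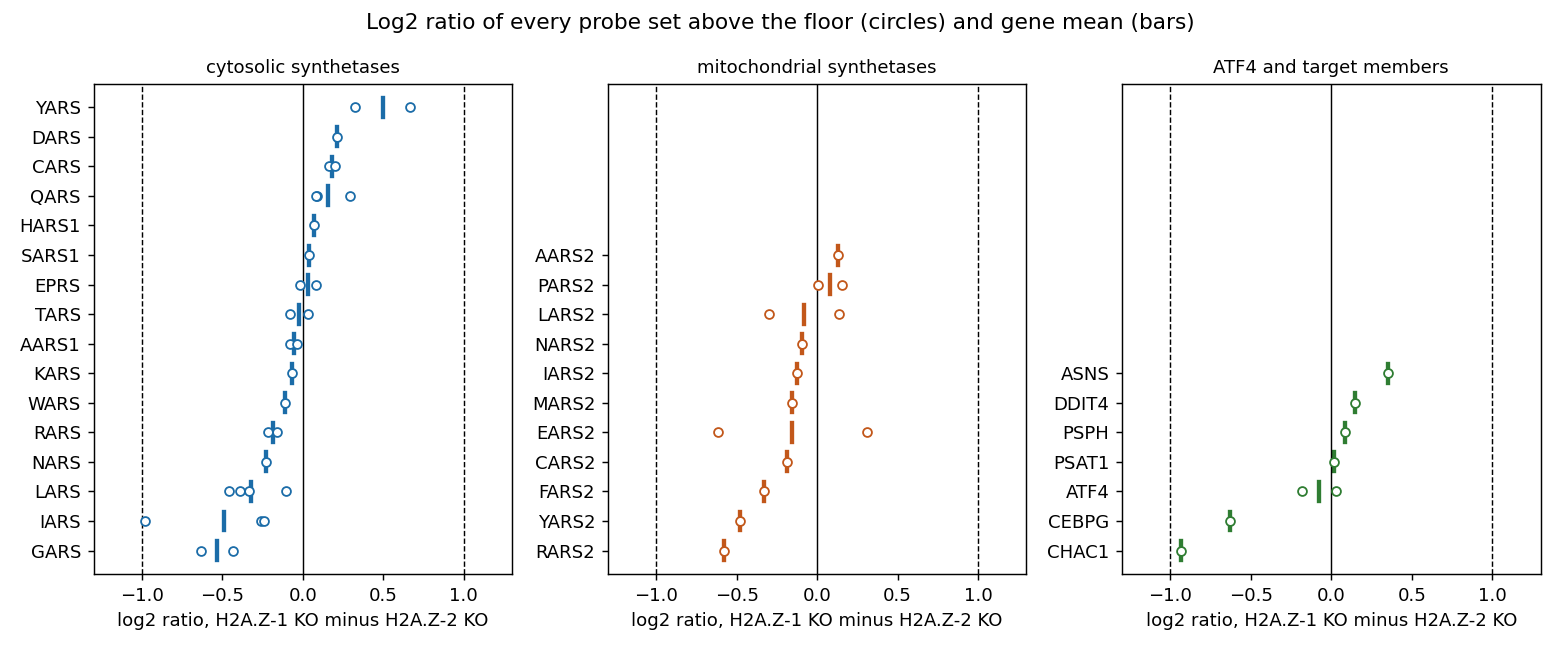
Log2 ratios (H2A.Z-1 KO over H2A.Z-2 KO) of all 52 member probe sets above the floor (circles) and the mean of each gene (bars), in 3 panels by role, with dashed lines at 2-fold. IARS and EARS2 show the widest gaps between probe sets, and CHAC1 and the dimmest IARS probe set come nearest to the 2-fold line.

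Among the genes around ATF4, the transcription factor itself was near-equal on the arrays. Its brightest probe set had a signal of 14997 in H2A.Z-1 KO cells, against 16996 in H2A.Z-2 KO cells (-0.18), and its second one 4372 in H2A.Z-1 KO cells and 4280 in H2A.Z-2 KO cells (0.03). The third was under the floor. The gene mean was -0.07, and -0.36 with no floor. Of its partners, CEBPG, a leucine zipper protein that pairs with ATF4 in mammals, had 2925 in H2A.Z-1 KO cells and 4528 in H2A.Z-2 KO cells, a log2 ratio of -0.63. Of all named genes, 10.2% had a ratio at or below that of CEBPG. This ratio rests on 1 of its 2 probe sets, with a suffix for several transcripts, since the other was under the floor. With median centring CEBPG stood at -0.58, short of 1.5-fold. CEBPB, a related factor, had 22.6 in H2A.Z-1 KO cells, against 2.88 in H2A.Z-2 KO cells, both under the floor, so no ratio is given.

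The stress targets CHAC1 and DDIT4 had ratios of opposite sign. CHAC1, an enzyme that breaks down glutathione, had 864.2 in H2A.Z-1 KO cells, against 1649 in H2A.Z-2 KO cells, a log2 ratio of -0.93 on its 1 probe set. It was thus just short of 2-fold lower in H2A.Z-1 KO cells, and 4.50% of all named genes had a ratio at or below it. DDIT4, an inhibitor of mTORC1 signalling, had 108.6 in H2A.Z-1 KO cells and 86.9 in H2A.Z-2 KO cells. These signals lie on either side of the floor, so DDIT4 was at least 1.11-fold higher with H2A.Z-1 KO, a size that carries little information this close to background.

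Of the amino acid synthesis genes among the members, 3 were measured. ASNS, which makes asparagine, had a signal of 4662 in H2A.Z-1 KO cells, against 3645 in H2A.Z-2 KO cells, a log2 ratio of 0.35. PSAT1, the second enzyme of serine synthesis from a glycolytic intermediate, had 852.6 in H2A.Z-1 KO cells and 843.7 in H2A.Z-2 KO cells (0.02, and just below 0 with quantile normalization). PSPH, the last enzyme of that pathway, had 1866 in H2A.Z-1 KO cells and 1762 in H2A.Z-2 KO cells (0.08, and 0.67 with no floor). As reported, ASNS was higher in H2A.Z-1 KO cells and the serine enzymes near-equal. PHGDH, the entry enzyme of serine synthesis, had only 6.65 in H2A.Z-1 KO cells, against 4.53 in H2A.Z-2 KO cells. It is thus under the floor on both arrays while PSAT1 and PSPH were measured, and its 1 probe set cannot separate a low transcript from a probe that fails to detect it. Over the 7 measured genes of the ATF4 group the median was 0.02, with 3 genes below 0 and 4 above. It was 0.32 with no floor, where CEBPB and PHGDH also count, and -0.00 with quantile normalization. Over fewer genes it was -0.03 with a floor at percentile 80 and -0.05 without probe sets of several transcripts.

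Other genes of the ATF4 pathway were taken from a list that holds no member. Of 27 found on the array 18 were above the floor, with a median log2 ratio of -0.39. Below 0 were 15 of these 18, beside 57.4% of all named genes. None passed 2-fold. At 1.5-fold 4 of the 18 were lower and 1 higher in H2A.Z-1 KO cells, beside the 11.6% and 7.56% of named genes above. The 15 include STC2, SLC7A11 and PCK2, which were under the floor in H2A.Z-1 KO cells and set to it. They had 162.7, 103.0 and 98.7 in H2A.Z-2 KO cells, so their direction rests on signals near background. STC2, at -0.73, is also among the 4. Their median was lower than the members' -0.08 by value. The farthest was CTH, which makes cysteine from cystathionine, with 1654 in H2A.Z-1 KO cells, against 3305 in H2A.Z-2 KO cells, just short of 2-fold lower in H2A.Z-1 KO cells. SLC1A4, a carrier of neutral amino acids, had 1257 in H2A.Z-1 KO cells and 2188 in H2A.Z-2 KO cells (-0.80), with both probe sets past -0.6. On the other side SLC38A2, a carrier of small neutral amino acids, had 758.2 in H2A.Z-1 KO cells and 467.5 in H2A.Z-2 KO cells (0.70), and the autophagy gene ATG12 had 944.2 in H2A.Z-1 KO cells and 689.2 in H2A.Z-2 KO cells (0.45). A shift of this kind in a list overlapping with these genes had been seen in these data before, and no test of a difference between the lists was made.

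Upstream, genes of the eIF2 kinases and the eIF2 cycle lay near the whole array. Of 15 on the array 13 were measured, with a median log2 ratio of -0.06, 7 below 0 and 6 above, and none past 1.5-fold. EIF2AK4, the kinase GCN2 that senses uncharged tRNA, had a signal of 339.5 in H2A.Z-1 KO cells, against 383.1 in H2A.Z-2 KO cells (-0.17). The farthest were PPP1R15B, a phosphatase subunit that reverses eIF2 phosphorylation (0.46), and the kinase gene EIF2AK1 (0.34) above 0, and EIF2B2 (-0.30) and EIF2B5 (-0.29), subunits of the exchange factor for eIF2, below it. EIF2AK4 was chosen after its value was seen, and it has a measured probe set under the floor on 1 array.

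Partners of the synthetases that the naming rule leaves out had a median log2 ratio of -0.27 over 13 measured genes. With a floor at percentile 80 it was -0.14. Below 0 were 10 of the 13, beside 57.4% of all named genes. None passed 2-fold. QRSL1 and GATB, with GATC, are the subunits of the mitochondrial enzyme that converts the glutamate loaded by EARS2 on glutamine tRNA into glutamine. QRSL1 had 726.3 in H2A.Z-1 KO cells, against 1198 in H2A.Z-2 KO cells (-0.72), and GATB had 370.0 in H2A.Z-1 KO cells and 585.0 in H2A.Z-2 KO cells (-0.66). GATC stood at -0.36, with probe sets from -0.74 to 0.12. The first 2 were the farthest below 0 of the list. FARSA and FARSB, the alpha and beta subunits of cytosolic phenylalanyl-tRNA synthetase, lay on opposite sides. FARSA had 2566 in H2A.Z-1 KO cells and 1745 in H2A.Z-2 KO cells (0.56), and FARSB had 2914 in H2A.Z-1 KO cells and 3775 in H2A.Z-2 KO cells (-0.37). The tRNA proofreading gene DTD2 was the next above 0 at 0.49. GATC and FARSB were chosen after their values were seen.

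**Figure D4:**
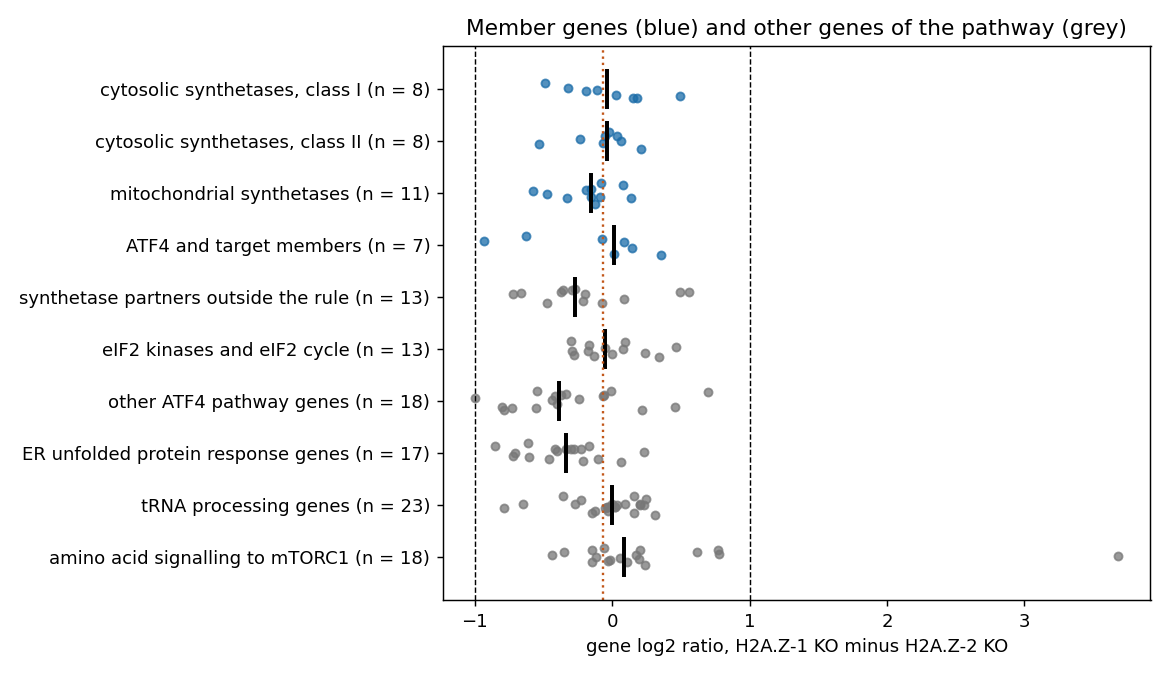
Log2 ratio (H2A.Z-1 KO over H2A.Z-2 KO) of each measured gene (points) and list median (black bars) for the member genes (blue) and other genes of the pathway (grey), with dashed lines at 2-fold and a dotted line at the median of all named genes, -0.06. Cytosolic synthetases and the ATF4 group lie on both sides of the dotted line, and 9 of the 11 mitochondrial synthetases lie below 0. The lists of other ATF4 pathway genes, the unfolded protein response and synthetase partners have medians of -0.39, -0.34 and -0.27. No difference between the lists was tested.

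By position, the 36 member genes with a matching identifier are spread over 17 chromosomes of the RefSeq gene table, with at most 4 on any of them. EPRS and IARS2 are the closest pair, with 1 protein-coding gene between them. Their log2 ratios were 0.03 and -0.13.

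The sign of most members stayed the same when the same arrays were reprocessed. Of the 34 genes, 30 kept their sign under every alternative that measured them, and IARS2, LARS2, PSAT1 and TARS did not. For the 20 genes with a single probe set above the floor, choosing the brightest probe set returned the reported value by construction. The 30 also include genes near 0, such as AARS1, which ranged from -0.077 to -0.002. A kept sign therefore cannot show whether a direction would recur in other cultures. CHAC1 ranged from -0.95 to -0.88 and CEBPG from -0.80 to -0.58, while YARS ranged from 0.47 to 0.76 and ASNS from 0.33 to 0.41. CEBPG, YARS and ASNS were not measured without probe sets of several transcripts, so their ranges leave that alternative out.

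**Figure D5:**
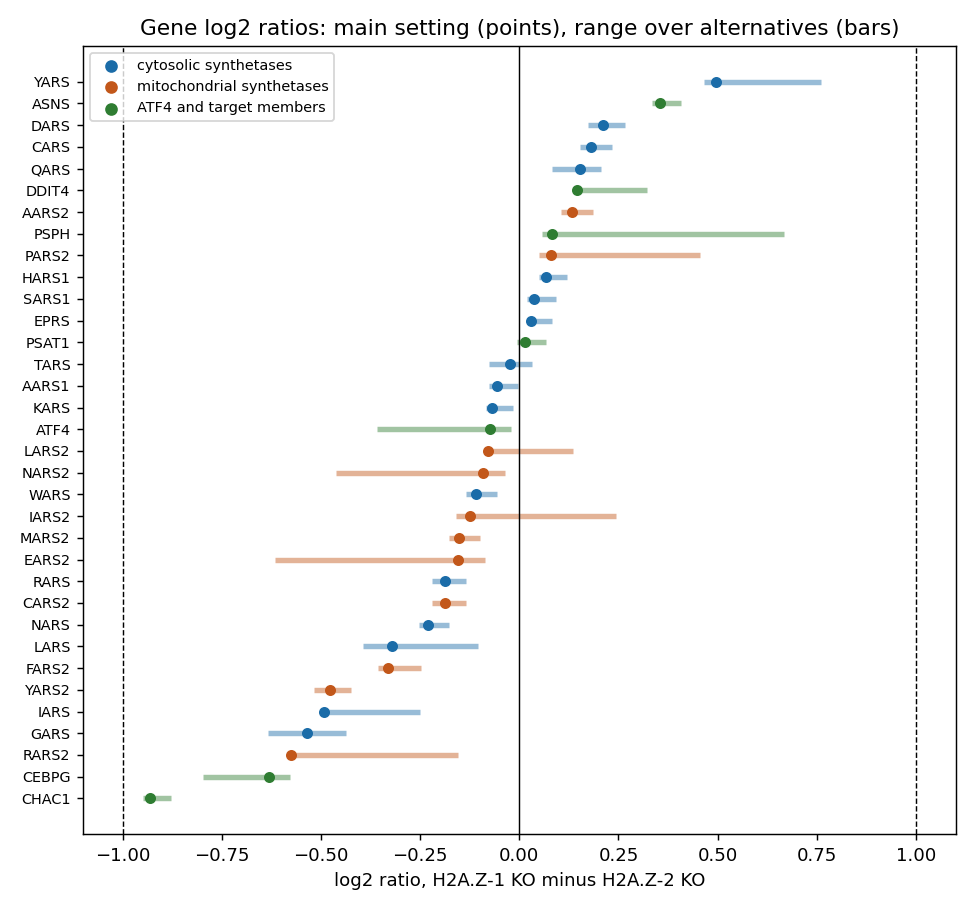
Log2 ratio (H2A.Z-1 KO over H2A.Z-2 KO) of each of the 34 measured genes as reported (points) and its range over up to 8 alternatives of scaling, floor and probe sets (bars), coloured by role, with dashed lines at 2-fold. No bar reaches a dashed line, and the widest bars belong to genes with dim probe sets or with probe sets that disagree, such as PSPH, EARS2 and RARS2.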

How the data were processed

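The authors deposited linear intensities, 1 per probe set, from 1 array per genotype. They used MAS5, per the submitters' processing notes. The method corrects background, summarises each probe set and scales each array, which would hide a global difference in RNA. Its version and settings, not given in the sources used here, may differ from the defaults.

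The 96 control probe sets were left out. Signals under the 60th percentile of the other 38439 (98.2) were set to it, and probe sets under it on both arrays were dropped. A gene's log2 ratio is the mean over its remaining probe sets, and its signal their geometric mean. Symbols came from the platform annotation (27168 probe sets with 1 symbol, 177 with several, 11094 unnamed), updated by identifier for 26853 through RefSeq's GRCg7b gene table. DDIT4's identifier had no match. The 2-fold calls per probe set were tested on simulated data with Python 3.11.15, pandas 2.3.3 and statsmodels 0.14.6. The differences simulated there were larger than that of any member. Gene means, medians and the alternatives were not covered.

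All member genes are named; of other lists, the genes past 2-fold and the 2 farthest from 0 each way, with some others beside them. Members and lists were chosen with earlier results of these data known. Alternatives were median centring, quantile normalization, lowess removal of the brightness trend (3 iterations, fraction 0.3), floors set at percentiles 40 and 80, no floor with a pseudocount of 1, leaving out probe sets of several transcripts, the brightest probe set, and thresholds of 1.5-fold and 3-fold. Promoter sequence was not analysed here.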

Additional observations from a re-analysis of the deposited data

How the results depend on the processing

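The 2-fold count of member probe sets, 0 as reported, was 0 with median centring, quantile normalization, the brightness trend removed, a floor at percentile 80, no probe sets of several transcripts, a threshold of 3-fold and a mean signal of 1000 or more. It was 3 with a floor at percentile 40 (37.6), 6 of 70 with no floor and 6 of 52 at 1.5-fold. The 3 are dim probe sets of PARS2, YARS and NARS2 that the reported floor drops. With no floor those of PSPH, CEBPB and a further one of NARS2 join them. Over all probe sets 11418 of 38439 passed with no floor and 3574 of 16701 at 1.5-fold. With a floor at percentile 40 the probe sets kept were not counted, so the 3 have no share beside them. All 2-fold calls numbered 1197 probe sets and 532 genes as reported, 2880 and 953 with a floor at percentile 40, 374 and 225 at the 80th, 11418 and 2875 with no floor, 3574 and 1532 at 1.5-fold, and 455 and 202 at 3-fold; probe sets with a mean signal of 1000 or more gave 233. The median of the ATF4 group, 0.02 over 7 genes, was 0.32 with no floor over 9 genes. The genes added there are CEBPB and PHGDH, both under the reported floor on both arrays. It was below 0 under quantile normalization (-0.00), a floor at percentile 80 (-0.03) and without probe sets of several transcripts (-0.05). The medians of member genes and of mitochondrial synthetases stayed below 0 under the alternatives run, and that of cytosolic synthetases turned to 0.01 with median centring. The median of all named genes stayed below 0 too, at -0.11 with a floor at percentile 40 and -0.16 without a floor. The member genes had -0.07 and -0.06 in these settings, above all named genes. As reported they had -0.08, below the -0.06 of all named genes. Over the alternatives PSPH, which has a dim probe set, lay between 0.06 and 0.67. So did NARS2 between -0.46 and -0.04, PARS2 between 0.05 and 0.45 and IARS2 between -0.16 and 0.24, which have such probe sets too. Of these ends, the lower ones of PSPH, PARS2 and IARS2 came with quantile normalization and not with a change of floor. The upper one of NARS2 came with the brightness trend removed. DDIT4 lay between 0.15 and 0.32 on its 1 probe set, whose H2A.Z-2 KO signal of 86.9 is set to the reported floor. No paired analysis was possible because each genotype has 1 array.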

Other observations

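Genes of the unfolded protein response in the endoplasmic reticulum had a median log2 ratio of -0.34 over 17 measured genes. Of the 17, 15 were lower in H2A.Z-1 KO cells. Among all named genes 57.4% were lower. None of the 17 passed 2-fold, and 5 were at least 1.5-fold lower, beside 11.6% of named genes. EDEM3, which directs misfolded glycoproteins to degradation, had a signal of 270.3 in H2A.Z-1 KO cells, against 489.1 in H2A.Z-2 KO cells (-0.86), with probe sets from -1.26 to -0.26. SEL1L, part of the same degradation machinery, had 295.7 in H2A.Z-1 KO cells and 488.4 in H2A.Z-2 KO cells (-0.72), with probe sets from -1.24 to -0.43. Both EDEM3 and SEL1L have a measured probe set that was under the floor on 1 array and was set to it. The chaperone gene HSPA5 had 21461 in H2A.Z-1 KO cells and 23046 in H2A.Z-2 KO cells (-0.10), and was chosen after its value was seen. PDIA6, a disulfide isomerase, and CALR, a lectin chaperone, were the 2 above 0, at 0.23 and 0.07. The list median stayed between -0.41 and -0.29 under the 8 alternatives run. Negative medians of overlapping lists were already known from these data.

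Genes that make or modify tRNA were centred near 0 (median from -0.04 to 0.05 over the 8 alternatives, on either side of 0), with 12 of 23 measured genes below 0 and 11 above, and none passed 2-fold. DUS2 and ELAC2, a tRNA dihydrouridine synthase and a tRNA 3' processing enzyme, were lowest at -0.79 and -0.65. RPP38 and POP5, subunits of RNase P, were highest at 0.31 and 0.25. Genes that relay amino acid levels to mTORC1 had a median of 0.08 over 18 measured. Of the 18, 1 passed 2-fold, beside 6.67% of all named genes. It was SESN1, a sestrin, with 3040.4 in H2A.Z-1 KO cells, against 236.6 in H2A.Z-2 KO cells (3.68). At 1.5-fold 4 of the 18 were higher in H2A.Z-1 KO cells and 0 lower, beside 7.56% and 11.6% of named genes. The 4 are SESN1, RRAGC, DEPDC5 and TSC1 (0.61). RRAGC, a Rag GTPase that recruits mTORC1 to lysosomes, had 3626 in H2A.Z-1 KO cells and 2120.0 in H2A.Z-2 KO cells (0.77). DEPDC5, part of the GATOR1 complex that restrains mTORC1, had 400.4 in H2A.Z-1 KO cells and 234.8 in H2A.Z-2 KO cells (0.77), with its 4 measured probe sets from 0.62 to 0.86, and was chosen after its value was seen. SEC13 and MLST8 were lowest at -0.43 and -0.35. Both DEPDC5 and SEC13 have a measured probe set under the floor on 1 array.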
